A study of Mus musculus with 9 samples.

Results

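The tumours described are the 5 lymphomas, of 9 in the study, that arose in mice carrying both the Eμ-Myc and the Eμ-TTP-1 transgene. They were chosen by their sample titles and are described alone. Their labels give a strain background of 94% C57BL/6, lymphoma as the tissue and a positive genotype for both transgenes, which all 5 share. No age or treatment is given. Total RNA from each tumour was hybridised to 1 Affymetrix MOE430 2.0 array, and the labels call the 5 arrays biological replicates of the group, numbered 1 to 5.

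Eμ is the enhancer of the immunoglobulin heavy chain gene, and it drives both transgenes in the B cell lineage. MYC is a transcription factor that raises cell growth, ribosome production and division, and Eμ-Myc mice develop clonal B lymphomas that can resemble precursor or mature B cells. TTP, the product of Zfp36, binds AU-rich elements in mRNAs and promotes their decay. Precursor B cells carry the surrogate light chain (Igll1, Vpreb1) and the recombination enzymes (Rag1, Rag2). Later stages show surface immunoglobulin, class II antigen-presenting molecules and follicular homing receptors.

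Every level below is a log2 GCRMA intensity of 1 probe set per gene, the one with the highest mean over the 5 arrays. Where 5 values are listed they belong to replicates 1, 2, 3, 4 and 5 in that order. GCRMA is a method that corrects background by probe sequence, normalises arrays to each other and summarises each probe set. A level over 8 (intensity 256) was treated as clearly present, and one under 4 (intensity 16) as background. Of 18193 genes measured, 7379 had a mean over 8, and the variation described below is among these. No p-value is given, because 1 group has no contrast, and setting 1 array against 4 cannot give an exact two-sided p under 0.2. With 5 arrays, each SD is itself imprecise.

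The arrays were alike in brightness, but GCRMA normalises them to each other, so this says little about the RNA. Between 48.0% and 48.8% of probe sets exceeded intensity 16 on each array, and 7291 to 7548 genes exceeded 256. Over all probe sets, Pearson correlations across probe sets ran from 0.983 to 0.990 among replicates 1, 3, 4 and 5. Replicate 2 stood apart, with correlations of 0.964 to 0.979, the highest with replicate 4. It differed by at least 1 log2 unit from the median of the other 4 in 760 of the 7379 genes (10.3%), against 298 to 397 genes for each of the others. Replicates 2 and 5 also differed from the rest in sex-linked genes. Xist, the RNA that silences 1 X chromosome in female cells, read 2.82, 14.63, 2.71, 2.65 and 14.15. The Y-linked Kdm5d, a histone demethylase gene, read 9.04, 2.42, 10.08, 9.32 and 2.37. Any part of these sex-linked readings in the other results was not tested.

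Many of the brightest probe sets belonged to genes of protein synthesis, and others to genes of the cytoskeleton. The B cell surface genes Cd24a and Cd79b stood at places 42 and 96. Ribosomal protein genes filled the first 12 places, led by Rps29 at a mean of 16.52, and made up 34 of the first 100. Of 50 ribosomal protein genes measured, 45 had a mean over 8 and 36 a mean over 14. Probe sets differ in how well they bind, so this is an order of brightness and not of copies per cell.

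Among the 20 brightest genes outside the ribosomal proteins, the translation machinery came first. Eif5a, a factor that helps the ribosome through difficult peptide bonds, read 16.05, 15.99, 16.06, 16.07 and 16.06. The elongation factor genes Eef1a1 and Eef1b2 had means of 15.88 and 15.74. Naca, which binds nascent chains at the ribosome, had a mean of 15.86, and Pabpc1, the poly(A)-binding protein, one of 15.56. Npm1 and Ncl, nucleolar proteins of ribosome assembly, had means of 15.64 and 15.49. Actin and its partners were present as well: Actb at 15.73, the actin-severing Cfl1 at 16.01, the thymosins Tmsb10 and Tmsb4x at 15.90 and 15.54, and the leukocyte coronin Coro1a at 15.49. Cks1b, a cyclin-dependent kinase partner, had a mean of 15.78. Cd24a, a surface glycoprotein abundant on immature B cells, was the brightest lymphoid surface gene at 15.48. The remaining members of these 20 were Tpt1, Cox6a1, Snrpg, Lyz1, Serbp1 and Tkt, with means from 15.50 to 15.93. The Lyz1 probe set is of the type that can bind related transcripts, and the macrophage lysozyme gene Lyz2 read 13.86 to 15.13.

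The readings of these brightest genes hardly varied. The first 100 had a median SD of 0.0762, and none of them had an SD of 1 or more. The largest SD was that of Crip1, a LIM-domain protein, at 0.776. Crip1 read 15.84, 13.84, 15.35, 15.54 and 15.33, with replicate 2 lowest and clear of the other 4. Rpl13a (16.36) and Rpl8 (15.11) each held the same value on 3 arrays, so their small SDs say little. Whether differences are compressed near the top of the scale was not tested. On each array the first 100 genes held 16.98% to 17.84% of the summed intensity of all genes, a share that the normalisation also keeps alike.

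Most growth and division genes were high in every tumour and close together. All 19 measured proliferation genes had a mean over 8, and none of them had an SD of 1 or more, against 366 of the 7379 genes (4.96%). Of the 19, 18 exceeded 8 on every array, the exception being Tyms, thymidylate synthase, at 7.91 in replicate 3 and 7.46 in replicate 5. Their list mean was between 12.76 and 13.001 on the 5 arrays. Mki67, the cell cycle antigen Ki-67, read 14.20, 14.51, 14.04, 14.35 and 14.14. Pcna, the sliding clamp of DNA replication, read 15.02, 15.47, 15.17, 15.18 and 14.97. All 15 nucleolar biogenesis genes and all 12 translation factor genes also had a mean over 8 with no SD of 1 or more. Their list means were 12.69 to 13.18 and 15.10 to 15.17. With 4.96% over all genes, lists of these sizes would hold few or none, so these counts do not set the lists apart.

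The gene of the Myc transgene was high in each tumour. Myc read 14.14, 13.78, 14.02, 14.15 and 14.01, an SD of 0.15. None of the 9 clearly present members of the MYC network list, which holds partners and antagonists of MYC, had an SD of 1 or more, a count near the 4.96% of all genes. Zfp36, the gene that encodes TTP, read 10.85, 9.98, 10.80, 10.34 and 10.79, with replicate 2 lowest. Whether its probe set reads the transgene, the mouse gene or both was not tested. Its relatives Zfp36l1 and Zfp36l2, which also bind AU-rich elements, had means of 12.80 and 14.16, and all 9 measured genes of the AU-rich element binders were over 8 on every array.

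The 5 tumours carried a B lymphoid identity. Of 18 pan-B genes listed, 16 were measured, all 16 had a mean over 8, and 11 exceeded 8 on every array. Cd79a, a signalling chain of the B cell receptor, read 13.80, 14.04, 13.83, 13.88 and 13.69. Its partner Cd79b read 14.40, 15.30, 14.93, 14.70 and 14.69. Ebf1, which specifies the B lineage, read 11.58, 12.08, 12.57, 11.81 and 11.58. The 5 tumours overlapped within about 1 log2 unit in these genes, as they did in the adaptor Blnk (12.95 to 13.60), the coactivator Pou2af1 (14.28 to 14.69) and the tetraspanin Cd37 (12.99 to 13.32).

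The B lineage factor Pax5 was the dimmest present member of that list, at 8.66, 8.49, 8.66, 8.66 and 8.66. Its value on 4 arrays was the same to the last digit, which 3 of the 7379 genes showed in 4 arrays, so its small SD says little. A second Pax5 probe set read 5.79 to 6.996. Ighm, the heavy chain of IgM, read 14.16, 14.35, 13.49, 13.27 and 14.07, and a second bright Ighm probe set read 12.38 to 13.73. The transcription factors Ikzf1 (12.38 to 12.63), Tcf3 (11.92 to 12.65) and Bcl11a (11.16 to 12.13) were present in every tumour.

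**Figure D1:**
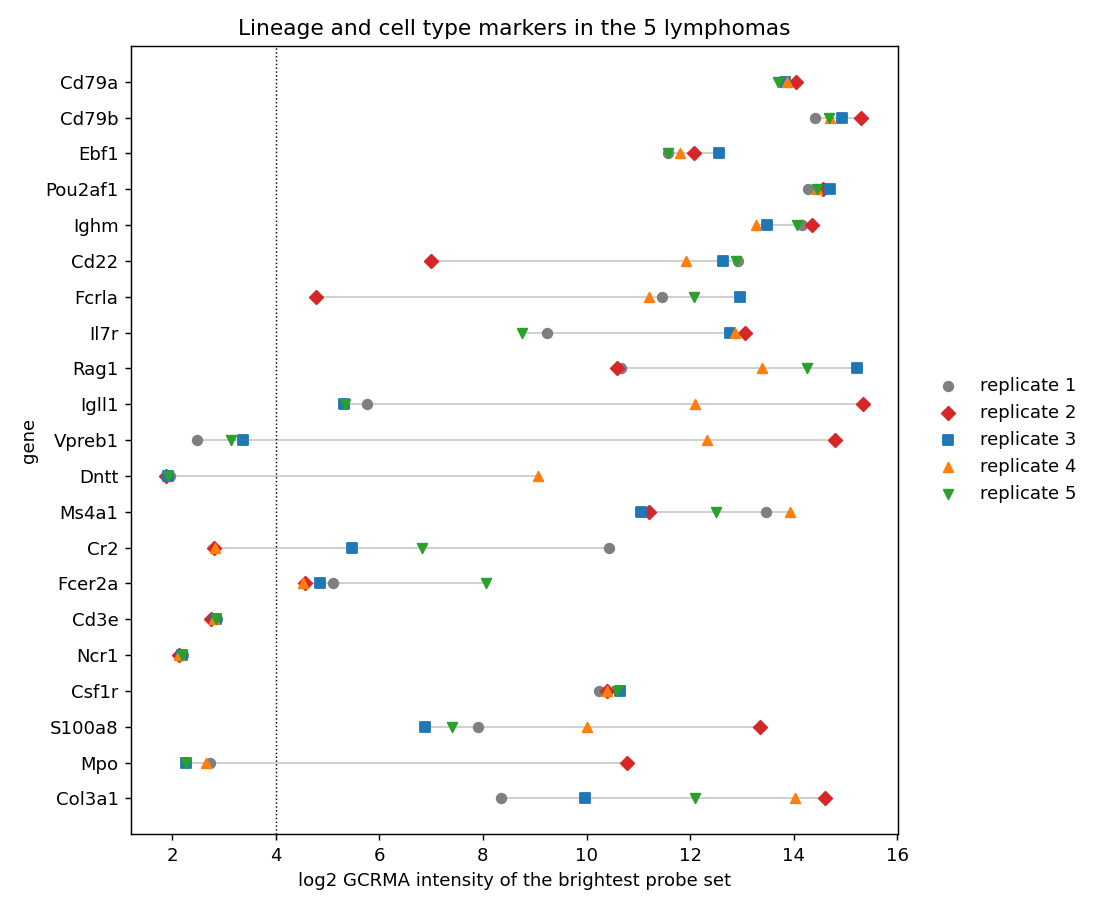
Log2 GCRMA intensity (horizontal axis) of 21 B cell and other lineage genes (rows); each point is 1 lymphoma, its shape marks the replicate, and the dotted line marks the background level of 4. Cd79a, Cd79b and Ebf1 are high in all 5 lymphomas, and Igll1 and Vpreb1 are high in replicates 2 and 4.

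Genes that mark stages of B cell development differed between tumours, and the surrogate light chain split them most widely. The markers below ordered the tumours in different ways, and no stage was assigned to any tumour. Igll1, which encodes the λ5 chain, read 5.76, 15.34, 5.31, 12.10 and 5.33. Vpreb1, its partner in the surrogate light chain, read 2.48, 14.79, 3.36, 12.33 and 3.13. Replicates 2 and 4 were high in both genes, with no overlap with replicates 1, 3 and 5, where Vpreb1 was at background. The Vpreb1 mean of 7.22 kept it outside the 7379 genes. The Igll1 probe set can bind related sequences, and a second one was at background on every array (2.19 to 2.86). Vpreb3, a further light-chain-like gene, was high in all 5, between 12.09 and 13.09.

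The start regions of both genes are given because they went together across the 5 tumours. The sequences are those of RefSeq on build GRCm38.p6, 5′ to 3′ on the gene's strand, from 250 bases before the start to 50 after it. Igll1 lies at chr16:16863936-16864235 and Vpreb1 at chr16:16869206-16869505, both on the minus strand, close to each other. Capitals mark CAGGTG, read on either strand, a form of the E-box that the B lineage factor E2A is known to bind. It begins 8 bases before the start in Igll1, as CACCTG, and 88 bases before it in Vpreb1.
Igll1: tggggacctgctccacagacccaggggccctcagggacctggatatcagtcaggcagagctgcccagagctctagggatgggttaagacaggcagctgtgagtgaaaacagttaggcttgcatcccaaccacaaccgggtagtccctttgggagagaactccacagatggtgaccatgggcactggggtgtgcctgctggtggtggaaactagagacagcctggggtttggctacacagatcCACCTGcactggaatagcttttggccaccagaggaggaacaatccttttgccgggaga
Vpreb1: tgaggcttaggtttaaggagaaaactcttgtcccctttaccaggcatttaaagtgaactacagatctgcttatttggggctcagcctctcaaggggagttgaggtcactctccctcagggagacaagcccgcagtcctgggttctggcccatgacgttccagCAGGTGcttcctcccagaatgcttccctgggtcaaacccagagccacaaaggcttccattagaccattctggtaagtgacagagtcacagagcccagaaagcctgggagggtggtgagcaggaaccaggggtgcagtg
CAGGTG stood in 20.2% of 32851 promoters of this length. The other strings searched on both strands were CAGCTG, found in 16.3%, CACGTG, found in 7.15%, and CCAAT, found in 37.4%. Of these 3, the Igll1 window held CAGCTG and the Vpreb1 window held none. A match is a description of letters and not a binding site.

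The recombination genes ordered the tumours differently. Rag1 read 10.66, 10.59, 15.23, 13.39 and 14.26, so that it was present throughout, with replicates 1 and 2 lowest. Rag2 read 6.93, 7.31, 10.96, 8.18 and 9.14, highest in replicate 3 and lowest in replicates 1 and 2. Il7r, the receptor chain for the growth factor IL-7, read 9.23, 13.06, 12.78, 12.86 and 8.74. Replicates 2, 3 and 4 were above replicates 1 and 5 in that gene, without overlap.

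Further precursor genes set single tumours or pairs apart. Kit, the stem cell factor receptor, read 5.33, 10.73, 6.02, 7.65 and 7.55, highest in replicate 2. Erg, a transcription factor of early progenitors, read 4.70, 11.08, 4.66, 10.66 and 6.16, high in replicates 2 and 4. Dntt, which adds untemplated bases at recombination joins, read 9.05 in replicate 4 and 1.88 to 1.95 in the others. Arpp21 reached 6.13 in replicate 4 and stayed at background in the others, and Flt3 and Il2ra did not exceed 4.55 on any array. Sox4, a transcription factor of B cell progenitors, was at 13.56 to 14.84 throughout. Cd93, a marker of immature B cells, read 13.47, 11.53, 13.35, 11.37 and 13.79, lower in replicates 2 and 4 than in the rest. Lef1, also on the precursor list, went against Kit and Erg in replicate 2, at 11.98, 4.90, 12.09, 10.84 and 12.39. Over the 16 measured precursor genes the list means were 7.69, 9.59, 8.68, 10.22 and 8.32, highest in replicate 4.

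Genes of mature B cells gave another order. Ms4a1, which encodes CD20, read 13.47, 11.20, 11.05, 13.92 and 12.50, with no tumour at background. Cr2, complement receptor 2 of mature B cells, read 10.43, 2.81, 5.47, 2.82 and 6.82, so that it was clearly present in replicate 1 and at background in replicates 2 and 4. Fcer2a, the low-affinity IgE receptor of mature B cells, was clearly present in replicate 5 (8.05), with 4.52 to 5.11 in the others. Ccr7, a homing receptor for lymph nodes, read 9.98, 3.28, 11.08, 9.26 and 10.54, at background in replicate 2 alone. Tnfrsf13c, the receptor for the survival factor BAFF, read 10.95, 7.59, 10.33, 10.11 and 9.82, also lowest in replicate 2. Tnfrsf13b, Klf2 and Cd55 exceeded 8 in all 5, with SDs of 0.47, 0.50 and 0.50. Cxcr5, Ccr6, Cd40, Cd83 and S1pr1 had means from 4.44 to 8.45. The list means over 13 measured genes were 8.79, 7.05, 8.21, 8.28 and 8.75, lowest in replicate 2.

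Most germinal centre genes were low, and plasma cell genes were divided. Of 7 measured germinal centre genes, Bach2 alone had a mean over 8. Bcl6, the master factor of germinal centres, read 6.43, 5.73, 6.44, 6.44 and 7.41. Rgs13 was present in replicate 3 alone (8.12, against 2.61 to 2.69), as was the light chain segment Iglv1 (9.82, against 3.35 to 3.76). S1pr2, Mybl1 and Fas had means from 4.90 to 5.00, and Gcsam was at background. Of 8 measured plasma cell genes, 4 had a mean over 8, namely Mzb1 (12.66), Xbp1 (11.87), Irf4 (11.002) and Derl3 (8.63). Prdm1 and Sdc1 had means of 4.73 and 4.82, and Tnfrsf17 was at background. The joining chain gene Jchain reached 8.06 in replicate 3 and was at 3.58 to 5.89 in the others. Derl3, of endoplasmic reticulum quality control, read 9.21, 9.29, 9.76, 6.45 and 8.46. Ighg3, Igha and the probe set named Igk had means of 5.84, 5.83 and 4.78, and immunoglobulin probe sets can share sequence.

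Most T cell, natural killer cell, dendritic cell and erythroid markers were low. None of 16 measured T cell genes had a mean over 8, and 6 never exceeded 4. Cd3e, a chain of the T cell receptor complex, read 2.75 to 2.86. Of 9 natural killer cell genes 7 never exceeded 4, as did 5 of 8 dendritic cell genes and 7 of 11 erythroid genes. In bulk tumour RNA, fewer cells of a type and less RNA per cell cannot be told apart.

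Some genes on the T cell list were nevertheless high in particular tumours. Gata3, a T cell and progenitor transcription factor, read 2.75, 12.53, 2.71, 11.65 and 2.72, high in replicates 2 and 4. Bcl11b, a T lineage factor, read 10.29 in replicate 2 and 3.29 to 3.83 in the others. Zap70, a kinase of antigen receptor signalling, read 8.87, 2.49, 8.58, 7.36 and 7.90, at background in replicate 2. The T cell list means were close together, at 4.04 to 4.57.

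Macrophage, granulocyte and stromal genes were measurable and differed between tumours. Of 19 macrophage genes 12 had a mean over 8, with list means of 8.40, 8.64, 7.76, 9.28 and 8.04. Csf1r, the macrophage growth factor receptor, varied little (10.24 to 10.65), and the complement genes C1qa, C1qb and C1qc read lowest in replicate 3, at 10.75, 11.15 and 9.91. Mrc1, a scavenger receptor, read 5.39, 10.87, 7.63, 10.58 and 7.30, higher in replicates 2 and 4.

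Most granulocyte genes were highest in replicate 2. The list means over 13 measured genes were 4.57, 8.88, 3.47, 4.81 and 3.81, highest in replicate 2 and not over 4.81 in the others. S100a8, a calcium-binding protein of neutrophils, read 7.91, 13.35, 6.88, 10.001 and 7.40. Mpo, the myeloperoxidase of immature granulocytes, read 2.72, 10.78, 2.26, 2.65 and 2.27. Prtn3, a neutrophil protease, read 2.96, 10.60, 2.91, 4.38 and 2.93. Chil3 was an exception, at 10.85 in replicate 1 and 8.19 in replicate 2, and Mmp9 was highest in replicate 5 (6.16).

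Stromal genes were higher in replicates 2 and 4 for the fibrillar collagens. Col3a1, a collagen of connective tissue, read 8.34, 14.60, 9.97, 14.02 and 12.09. Col1a1 read 6.62, 12.002, 6.76, 11.52 and 9.43. The 14 genes of the whole stroma and endothelium list had means of 7.74, 8.97, 7.74, 8.80 and 9.01.

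**Figure D2:**
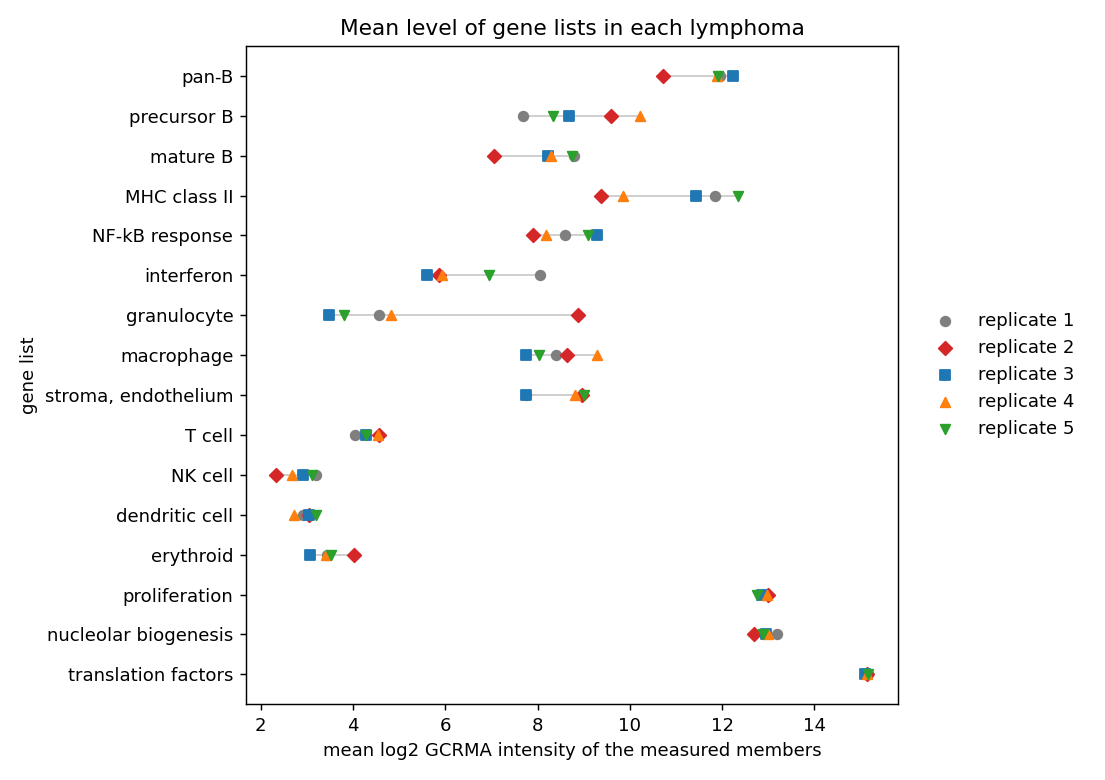
Mean log2 GCRMA intensity over the measured members of 16 gene lists (rows); each point is 1 lymphoma. Granulocyte genes average 8.88 in replicate 2 and at most 4.81 in the others, whereas proliferation genes lie between 12.76 and 13.001.

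Variation among the clearly present genes was small for most. The median SD over the 7379 genes was 0.254, with 366 genes (4.96%) at an SD of 1 or more and 81 at 2 or more. Without replicate 2, 203 genes reached an SD of 1. Stxbp5 and Cxcl16 were just inside the limit of 1, both at 1.003, and Mzb1 and Erdr1 just outside it, at 0.999 and 0.998. At the limit on the mean, Itsn1 (8.00003) was just inside and Ccdc163 (7.99992) just outside. Efnb1, an ephrin ligand with an SD of 2.22, also fell just outside, with a mean of 7.999.

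The gene with the largest SD was Eif2s3y, a Y-linked translation initiation factor gene, at 4.79. It read 12.39, 3.39, 12.32, 12.19 and 3.74, low in the tumours in which Xist was high. Igll1 was next, with an SD of 4.67. Mid1, an X-linked ubiquitin ligase gene, read 12.46, 11.12, 12.14, 11.37 and 2.73, at background in replicate 5 alone.

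Most of the 25 genes with the largest SDs were lowest in replicate 2. The filter on the mean keeps genes low in 1 tumour and drops most genes high in 1 or few. Vpreb1, for example, had an SD of 5.87 but a mean of 7.22. The direction therefore follows in part from the filter. Reln, which encodes the secreted glycoprotein reelin, read 10.89, 4.61, 14.58, 14.26 and 12.36. Slamf7, a receptor of the SLAM family on lymphocytes, read 11.40, 2.88, 12.35, 11.01 and 10.93. Clu, the chaperone clusterin, read 13.54, 5.63, 13.75, 9.67 and 13.59. In each of these 3 genes replicate 2 lay more than 4 log2 units below the next tumour.

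Irs1, an adaptor of the insulin receptor, read 12.07, 4.91, 12.41, 7.03 and 12.47, low in replicates 2 and 4. Lgr5, a receptor that strengthens Wnt signalling, read 9.51, 5.68, 10.13, 3.47 and 11.47, again low in both. Gm6958 went the other way, at 7.45, 13.55, 5.73, 13.04 and 7.83. Enpep, the aminopeptidase known as BP-1 on precursor B cells, read 14.02, 7.08, 13.02, 11.01 and 7.39, low in replicates 2 and 5.

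Further genes in this group followed other orders. Car3, a carbonic anhydrase, read 4.20, 13.46, 8.02, 6.59 and 11.48, high in replicates 2 and 5. Kcnk1, a potassium channel, read 2.47, 9.20, 9.69, 12.06 and 7.69, at background in replicate 1. Zfp982, a zinc finger gene, read 5.49, 9.48, 11.18, 3.50 and 11.70. The remaining ones, Pla2g2d, Gm10451, Bfsp2, Cxcl13, Gfi1, Etv5, Fcrla, Cacna1e, Ccr7, Lef1, Dusp4 and Tmem255a, had their lowest value in replicate 2, with SDs from 3.12 to 3.71.

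**Figure D3:**
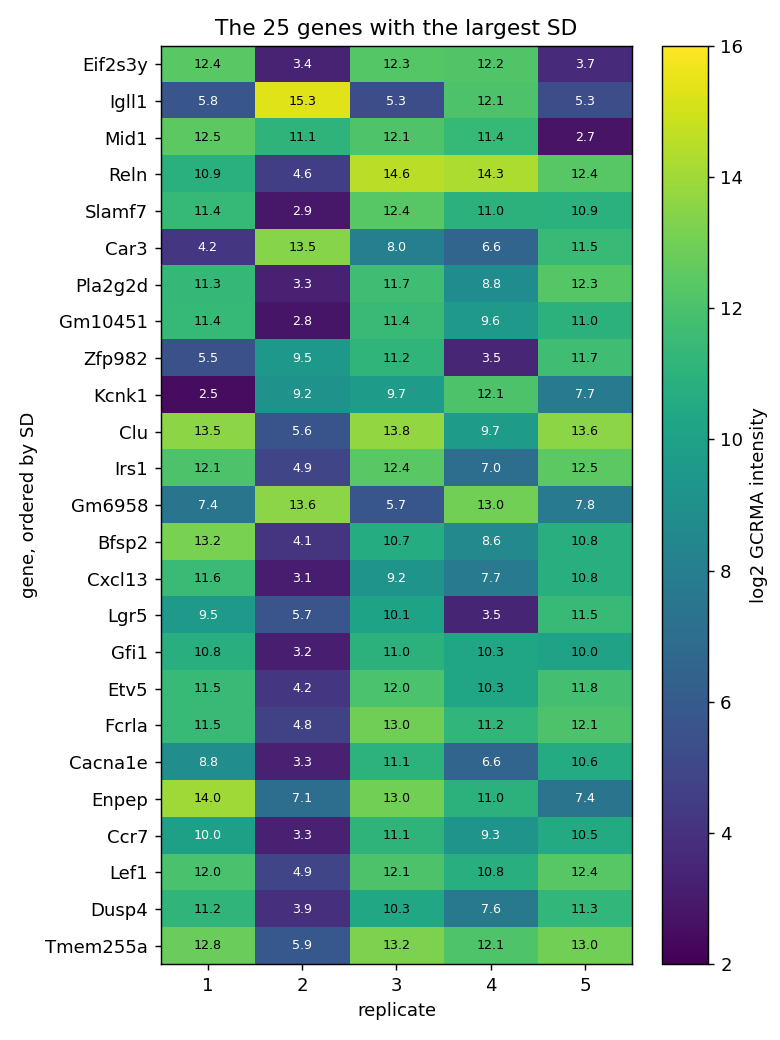
Log2 GCRMA intensity of the 25 genes with the largest SD among the 7379 with a mean over 8, in rows ordered by SD; columns are replicates 1 to 5, and colour and the printed value give the level. Replicate 2 is the lowest for most of these genes, with Slamf7 at 2.88 against 10.93 to 12.35 in the others. The filter on the mean favours genes low in 1 lymphoma over genes high in 1 alone.

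Replicate 2 supplied the extremes far more often than any other tumour. In the 366 variable genes it was the lowest in 147 and the highest in 138, which is 38.9% of all extremes. Over all 7379 genes it was the lowest in 29.4% and the highest in 26.5%. The 366 were chosen by an SD that includes replicate 2, which adds to its share by construction. A gene was said to set a tumour apart when its level lay at least 1 log2 unit, a factor of 2 in intensity, outside the range of the other 4. Replicate 2 lay above the others in 148 genes (2.01%) and below them in 184 (2.49%). Replicate 1 lay above in 13 (0.176%) and below in 44 (0.596%), and replicate 3 above in 30 (0.407%) and below in 44 (0.596%). Replicate 4 lay above in 15 (0.203%) and below in 13 (0.176%), and replicate 5 above in 18 (0.244%) and below in 24 (0.325%). At a distance of 2 log2 units, 35 genes remained above and 73 below in replicate 2, and at most 11 in either direction in each of the other tumours. The balance in replicate 2 depended on the filter: among 8313 genes whose highest array exceeded 8, it lay above in 350 (4.21%) and below in 283 (3.4%). This filter admits genes that are high on 1 array alone, which adds to the counts above by construction. Under the same filter the shares above were 0.469%, 0.782%, 0.589% and 0.601% in replicates 1, 3, 4 and 5, and the shares below were 1.01%, 0.914%, 0.265% and 0.385%.

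**Figure D4:**
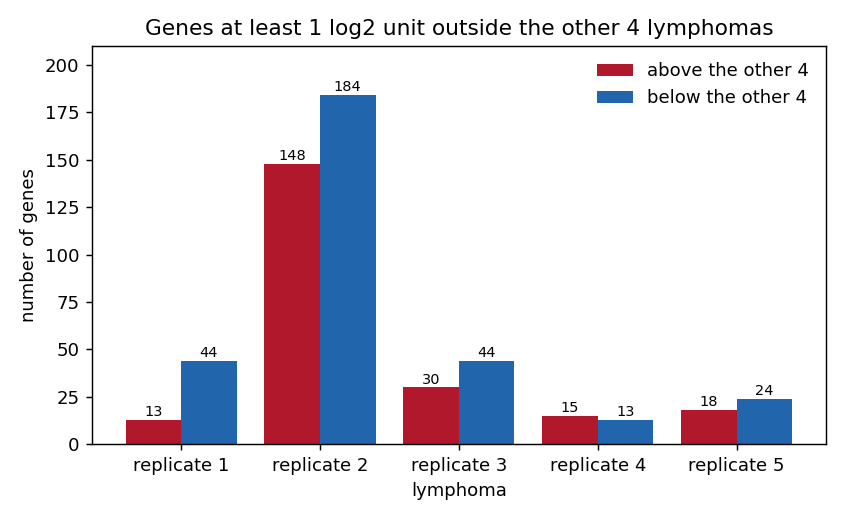
Number of genes, of 7379 with a mean over 8, in which 1 lymphoma lay at least 1 log2 unit above (red) or below (blue) the range of the other 4. Replicate 2 has 148 above and 184 below, and no other bar exceeds 44.

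The pan-B genes went both ways in replicate 2. Of the 16, 5 lay at least 1 log2 unit below the other 4 tumours, against 2.49% of all genes, and 1, Ralgps2, above them, against 2.01%. Replicate 2 was the lowest in 7 of the 16 and the highest in 5, against 29.4% and 26.5% of all genes. The count of highest values is near the share over all genes. Cd22, an inhibitory co-receptor of the B cell receptor, read 12.93, 6.99, 12.64, 11.91 and 12.89. Fcrla, an Fc receptor-like protein of B cells, read 11.46, 4.78, 12.96, 11.21 and 12.07. Cd72, a further inhibitory co-receptor, read 11.53, 7.50, 12.45, 11.30 and 12.27. Replicate 2 did not overlap with the other tumours in any of these 3 genes.

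The other pan-B genes low in replicate 2 were the scaffold protein Bank1 and the Src family kinase Blk. Bank1 read 13.11, 8.43, 11.92, 12.39 and 13.02. Blk read 9.84, 6.64, 11.15, 9.74 and 9.18. In contrast to these genes, Cd79b and Cd180, a Toll-like receptor relative, were highest in replicate 2 (15.30 and 10.31). The pan-B list means were 11.96, 10.72, 12.23, 11.88 and 11.92.

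Transcription factors were found on both sides. Lef1, of the Wnt pathway, read 11.98, 4.90, 12.09, 10.84 and 12.39. Gfi1, a repressor in blood cell development, read 10.83, 3.17, 10.98, 10.30 and 10.05. Etv5, of the ETS family, read 11.51, 4.19, 12.03, 10.27 and 11.81. All 3 were at or near background in replicate 2 and clearly present in the other 4.

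Bach2, a repressor that holds B cells back from plasma cell fate, read 12.75, 9.64, 13.76, 11.77 and 13.44. Irf4, which acts in B cell activation and plasma cells, read 11.08, 8.39, 12.59, 11.09 and 11.86. On the other side, Spi1, which encodes the myeloid and B cell factor PU.1, read 10.20, 11.99, 10.01, 10.55 and 10.31. Xbp1, a factor of the secretory pathway, read 11.69, 13.24, 10.60, 11.76 and 12.05. Replicate 2 lay outside the range of the other tumours in each of these 4 genes. Ebf1, Tcf3 and Ikzf1 differed by less than 1 log2 unit between replicate 2 and the median of the rest.

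The remaining genes farthest below were Slamf7, Gm10451, Reln, Tmem255a, Mcoln2, Ccr7, Tmem243, Trp53i11, Pla2g2d and Cxcl13. The 15 farthest below were 4.66 to 8.05 log2 units under the nearest other tumour. Mcoln2, a calcium channel of endosomes, read 10.84, 3.76, 9.98, 10.39 and 10.96. Cxcl13, a chemokine that attracts B cells to follicles and is made by stromal cells, read 11.57, 3.08, 9.24, 7.74 and 10.81. In both, replicate 2 was at background and the other tumours at 7.74 or more.

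Among genes with a mean over 8, the 15 farthest above the others in replicate 2 lay 2.80 to 4.42 log2 units over the nearest other tumour. Among genes whose highest array exceeded 8, the 10 farthest above lay 7.04 to 12.01 over it, with the other 4 tumours at background. These 10 passed the filter through replicate 2 alone, so their distances follow in part from the filter. The 10 farthest below lay 5.94 to 8.05 under the nearest other tumour. Vamp5, a vesicle fusion protein, read 7.85, 12.68, 7.83, 7.90 and 8.27. Fyb, an adaptor of T cells and myeloid cells, read 8.93, 13.18, 8.18, 9.0001 and 8.95. Pim1, a kinase that promotes survival and is induced by cytokines, read 7.71, 12.39, 9.09, 8.83 and 8.81. The other 4 tumours lay close together in these genes and did not overlap with replicate 2.

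Gsn, an actin-severing protein, read 9.85, 14.68, 9.91, 10.91 and 10.76. Socs5, of the suppressors of cytokine signalling, read 6.85, 11.13, 7.30, 7.86 and 7.52. Ifitm1, an interferon-induced membrane protein, read 7.96, 12.80, 9.05, 5.67 and 8.53. Car2, a carbonic anhydrase abundant in erythroid cells and osteoclasts, read 10.87, 15.05, 6.90, 11.20 and 12.01, while the 3 measured globin probe sets Hba-a1, Hba-a2 and Hbb-b2 did not exceed 5.65 on any array. S100a8 and Igll1, given above, were also among these 15, with Rab38, Ripor1, Ptpre, Rgs18, Prkca and Epg5.

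The granulocyte list moved with these genes in replicate 2. Of its 13 members 11 were highest in replicate 2, with the exceptions of Chil3 and Mmp9. Several of these were dim: 8 exceeded 8 on some array, and 1, S100a8, had a mean over 8. Of the 8, 7 were highest in replicate 2, against 28.2% of the 8313 genes with the highest array over 8. Some of the 8 could enter through replicate 2, and S100a8 is also one of the genes named above. The part of the granulocyte list in the genes above the others was not tested. Runx1, a blood cell transcription factor, and Stat5a, which relays cytokine signals, also lay above, at 12.80 against 9.30 to 10.28 and at 11.02 against 7.89 to 9.67. Both were singled out after their values were seen.

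Other probe sets of the same genes mostly went the same way. Over the named genes in which replicate 2 lay at least 1 log2 unit from the median of the others, 60 further probe sets had a mean over 6. Of these, 58 had the same direction in replicate 2, and 55 of them by at least 1 log2 unit.

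Replicate 4 was the tumour nearest to replicate 2. In the 184 genes low in replicate 2, replicate 4 was the next lowest in 96 (52.2%), against 20.6% over all 7379 genes. In the 148 high genes it was the next highest in 96 (64.9%), against 26.8% over all genes. Without replicate 4, replicate 2 lay above the remaining 3 in 253 genes, and without replicate 2, replicate 4 was set apart in 167 genes in place of 28. Set against replicates 1, 3 and 5 alone, replicate 2 lay above in 263 genes (3.56%) and below in 252 (3.42%). Replicate 4 lay above in 98 (1.33%) and below in 74 (1%). Both tumours were set against the same 3 arrays. Their own values stood side by side in the genes described above, for example Irs1 at 4.91 in replicate 2 and 7.03 in replicate 4, against 12.07 to 12.47. Clu stood at 5.63 and 9.67, against 13.54 to 13.75, and Lmo4, a LIM-domain transcription regulator singled out after its values were seen, at 8.96 and 9.07, against 11.44 to 12.21. Replicate 4 lay below the other 3 tumours in these genes, with replicate 2.

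Gaps between neighbouring tumours show the same grouping. In 171 genes (2.32%) the 5 ordered values had a gap of at least 2 log2 units. Replicate 2 was alone on its side in 101 of them (59.1%), low in 72 and high in 29. Replicates 2 and 4 were together and high in 12 genes and together and low in 9. The next most frequent pattern, high in replicates 2, 4 and 5, had 8 genes.

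Most class II antigen presentation genes were lower in replicates 2 and 4. Of 9 measured genes 8 had a mean over 8 and 7 an SD of 1 or more, against 4.96% of all genes. H2-Aa, the α chain of I-A, read 13.33, 10.76, 12.44, 10.54 and 13.76. H2-Eb1, the β chain of I-E, read 12.97, 9.52, 12.18, 10.35 and 13.73. Cd74, the invariant chain that guides class II molecules, read 13.83, 10.80, 13.52, 12.003 and 14.01. Replicates 2 and 4 were below the other 3 tumours in all 3 genes, with no overlap.

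H2-Ab1, the β chain of I-A, read 13.30, 10.75, 12.57, 11.10 and 13.89. Ciita, the coactivator that switches on class II genes, read 9.67, 4.41, 9.01, 6.02 and 10.05, but its mean of 7.83 lay under 8. The peptide-loading genes H2-DMa and H2-DMb2 read 8.55 and 9.46 in replicate 2 and 11.23 and 12.60 in replicate 5. Replicate 5 was the highest in 8 of the 9 genes, against 15.7% of the 8313 genes with the highest array over 8. The exception was H2-Oa, which was highest in replicate 3 (8.95). H2-Ob read 12.11, 12.56, 13.39, 11.10 and 13.59, lowest in replicate 4. The list means were 11.84, 9.37, 11.43, 9.86 and 12.34.

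The start regions of 2 class II genes are shown because these genes went together. Both sequences are from RefSeq on GRCm38.p6, with the same window as above. H2-Aa lies at chr17:34287774-34288073 on the minus strand, and H2-Eb1 at chr17:34305617-34305916 on the plus strand. Capitals mark CCAAT on either strand, the core of the Y box that class II promoters are known to carry. It begins 48 bases before the start in H2-Aa, and 59 and 35 bases before it in H2-Eb1.
H2-Aa: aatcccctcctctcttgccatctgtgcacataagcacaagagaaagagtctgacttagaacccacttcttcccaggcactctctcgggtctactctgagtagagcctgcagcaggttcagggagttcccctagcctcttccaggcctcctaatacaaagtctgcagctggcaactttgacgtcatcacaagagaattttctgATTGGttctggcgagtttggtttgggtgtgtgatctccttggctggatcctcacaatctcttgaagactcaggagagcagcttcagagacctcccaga
H2-Eb1: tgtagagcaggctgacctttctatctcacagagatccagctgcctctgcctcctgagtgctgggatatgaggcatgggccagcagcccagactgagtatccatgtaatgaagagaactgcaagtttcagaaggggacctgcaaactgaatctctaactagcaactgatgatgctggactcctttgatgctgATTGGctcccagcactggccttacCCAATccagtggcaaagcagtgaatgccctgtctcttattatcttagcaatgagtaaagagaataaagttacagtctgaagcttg
All 7 class II genes with an entry held CCAAT in this window, against 37.4% of all promoters. Of these 7, CAGGTG stood in 1, CAGCTG in 3, and CACGTG in 0. A gene counted if any of its entries matched, whereas the 37.4% is over single entries, so the units differ.

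The cyclin D genes split the tumours gene by gene. Ccnd1, the cyclin D1 gene, read 12.60, 8.03, 12.65, 12.82 and 12.61, low in replicate 2 alone. Both of its other probe sets were also lowest in replicate 2, at 6.62 and 6.52. Ccnd2 read 6.60, 5.55, 12.31, 6.30 and 7.77, high in replicate 3 alone, with a mean of 7.71. Ccnd3 read 9.22, 12.64, 11.05, 9.79 and 9.86, highest in replicate 2. A second Ccnd3 probe set read 9.68, 8.89, 9.84, 8.92 and 9.02, lowest in replicate 2, so the Ccnd3 reading depends on the probe set. The partner kinase genes Cdk4 and Cdk6 were at 12.70 to 13.05 and 12.38 to 13.32.

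Cell cycle inhibitors and the p53 axis varied as well. Cdkn2a, which encodes the tumour suppressors p16 and ARF, read 2.62, 6.94, 12.32, 5.73 and 9.65, from background in replicate 1 to high in replicate 3, with a mean of 7.45. Cdkn1a, the p53 target p21, read 8.41, 11.20, 5.52, 8.62 and 8.33, highest in replicate 2 and lowest in replicate 3. Zmat3, another p53 target, read 11.19, 4.99, 5.63, 7.52 and 10.89, high in replicates 1 and 5. Replicate 3 was lowest in 4 and highest in 4 of the 10 p53 axis genes that exceeded 8 on some array, against 18.5% and 21.7% of the 8313 such genes. Those lowest included Ccng1 (11.12, against 12.18 to 12.52) and Bbc3 (6.82, against 7.49 to 8.81). Mdm2, the inhibitor of p53, was between 8.27 and 8.58 throughout. Trp53inp1 was highest in replicate 3, at 14.18 against 12.45 to 13.44.

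Of the apoptosis regulators, Bcl2 was low in replicate 2. It read 9.99, 3.96, 9.83, 8.28 and 9.77, and a second probe set read 9.29, 3.07, 9.05, 7.77 and 9.28. Bcl2l1, which encodes the related survival protein BCL-XL, read 9.13 in replicate 2 and 7.19 to 7.51 in the others. Mcl1, a further survival protein, was high in all 5, at 13.51 to 14.24. Bcl2l2 was the other clearly present member with an SD of 1 or more, at 7.88, 9.66, 6.43, 8.55 and 8.99.

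**Figure D5:**
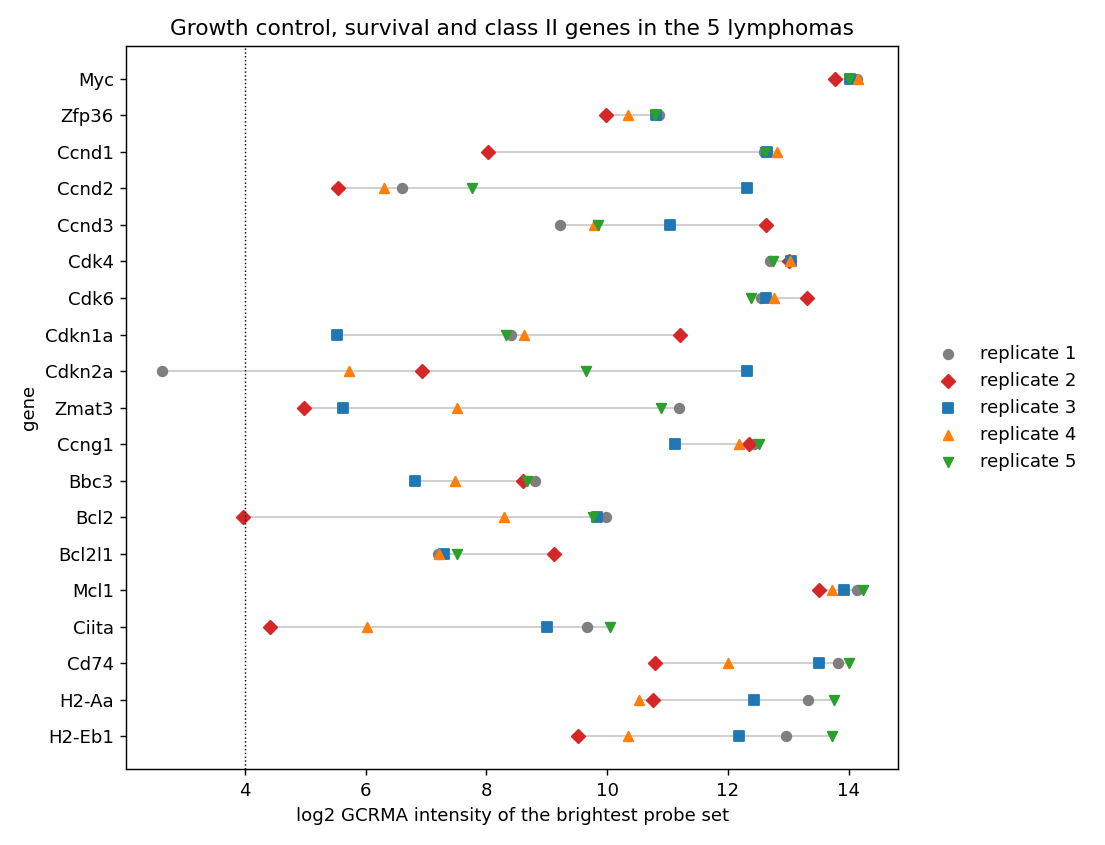
Log2 GCRMA intensity of genes of growth control, survival and class II antigen presentation; each point is 1 lymphoma, and the dotted line marks the background level of 4. Myc lies between 13.78 and 14.15, and Ccnd1 is at 8.03 in replicate 2 and at 12.60 or more in the others.

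Interferon-induced genes were mostly highest in replicate 1. The list means over 17 measured genes were 8.06, 5.87, 5.60, 5.93 and 6.95. Of the 9 genes that exceeded 8 on some array, 7 were highest in replicate 1, against 19.7% of the 8313 genes with the highest array over 8. Of the 9, 3 (Irf7, Rsad2 and Rtp4) lay at least 1 log2 unit above the other tumours there, against 0.469%. Irf7 exceeded 8 in replicate 1 alone and entered the 9 through it, so these counts follow in part from the filter. Of the 17 measured genes, 6 had a mean over 8. Rtp4, an interferon-induced chaperone, read 10.45, 7.38, 6.13, 7.44 and 9.24. Irf7, a transcription factor of the interferon response, read 8.54, 3.71, 3.85, 4.28 and 5.72, with a mean of 5.22. Oas1a, a sensor of viral RNA, read 10.11, 9.52, 4.84, 7.69 and 8.08, lowest in replicate 3. Gbp2 was an exception, highest in replicate 2 (9.68).

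Few genes set replicate 1 apart. Those farthest above were Bfsp2 (13.21, next 10.80), the cytokine receptor kinase Tyk2 (11.11, next 9.22) and Tmem108 (11.07, next 9.28). Those farthest below were Kcnk1, 2810025M15Rik (5.35, against 9.03 to 9.93) and the collagen Col6a3 (5.24, against 8.07 to 10.01).

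Several NF-κB target genes were highest in replicate 3, mostly by a small margin. The list means over 14 measured genes were 8.59, 7.90, 9.28, 8.19 and 9.09. Replicate 3 was highest in 6 of the 10 that exceeded 8 on some array, and replicate 2 lowest in 7, against 21.7% and 28.9% of the 8313 genes with the highest array over 8. Of the 14, 8 had a mean over 8, so some of the 10 could enter through the tumour in which they were high. By the distance of 1 log2 unit, 1 of the 10, Ltb, set replicate 3 apart, against 0.782% of the 8313 genes. Ltb, lymphotoxin β, read 10.39, 6.93, 12.83, 8.81 and 11.82. Nfkbia, the inhibitor IκBα, read 13.46, 12.81, 14.40, 12.84 and 13.62. The genes farthest above in replicate 3 were Bst1, a surface enzyme of pre-B and stromal cells (11.25, against 6.88 to 8.71), the ribonucleotide reductase subunit Rrm2b (11.04, against 8.58 to 9.11) and Glcci1 (11.67, next 9.81). Those farthest below were the neurofilament gene Nefh (4.59, against 9.40 to 11.07), Car2 and Oas1a.

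Replicates 4 and 5 were set apart by few genes. Farthest above in replicate 4 were Kcnk1, Nlrc3 (10.51, next 8.79) and Rragd, a GTPase of amino acid sensing (10.63, next 9.17). Farthest below in replicate 4 were Trim5 (5.82, against 8.84 to 10.63), Ifitm1 and the metalloprotease Adam19 (7.26, against 9.54 to 10.48). Farthest above in replicate 5 were Hpgd, which degrades prostaglandins (13.21, next 9.41), the peroxisomal import receptor Pex5 (12.20, next 9.97) and Esm1 (10.04, next 7.92). Farthest below in replicate 5 were Mid1, Rgs18, a regulator of G protein signalling (4.79, against 7.94 to 11.98), and the circadian repressor Cry1 (4.10, against 6.93 to 10.33).

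Of 9 clearly present immediate early genes, 2 had an SD of 1 or more, against 4.96% of all genes. Egr1, an early response transcription factor, read 11.51, 8.71, 11.80, 9.59 and 11.54, low in replicates 2 and 4. Fos, an AP-1 subunit, read 6.21, 9.38, 6.19, 10.03 and 8.73, low in replicates 1 and 3. Their relatives Junb, Jun and Dusp1 had SDs of 0.14, 0.25 and 0.20. None of the 12 clearly present glycolysis and hypoxia genes had an SD of 1 or more, and Ldha, lactate dehydrogenase, was at 14.63 to 14.88. None of the 6 clearly present heat shock genes had one, with Hspa8 at 15.23 to 15.37. At the share of 4.96% over all genes, lists of this size would hold few or none.

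The variable genes lay on every chromosome tabulated. Between 2.51% (chromosome 8) and 8.18% (chromosome 3) of the clearly present genes of a chromosome had an SD of 1 or more. The genes that set replicate 2 apart made up 2.48% (chromosome 4) to 6.45% (chromosomes 7 and 15). Shifts over a whole chromosome were seen in other tumours. The median gene of chromosome 19 was 0.54 log2 units under the 5-tumour median in replicate 3, a value of -0.54, and 0.33 over it in replicate 5. In replicate 5 the chromosome 17 median, which includes the class II genes, was 0.30, and the chromosome 3 medians of replicates 1 and 5 were 0.29 and 0.25. Other chromosome medians were between -0.11 and 0.14.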

How the data were processed

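The authors deposited 1 table of linear intensity values, from 1.56 to 123105 over these 5 arrays, which the submitters' processing notes trace to GCRMA (version not given in the sources used here). Per the labels' protocols, RNA was column-purified and biotin-labelled cRNA was hybridised. The 4 Eμ-Myc arrays were not used, scanner files were not analysed here, and 0 columns were left unmapped.

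Values were turned into log2 with no pseudocount and no further normalisation, using Python 3.11.15, pandas 2.3.3 and numpy 2.4.6 (figures, matplotlib 3.10.9). Of 45037 probe sets, 34945 were annotated with 1 gene, 932 with several and 9160 with none listed. Of those with 1 gene, 34741 matched RefSeq (GRCm38.p6). Probe sets were reduced to 18193 genes by the highest mean.

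All results are descriptions, without a test. Genes named are the 20 brightest non-ribosomal ones, the 25 with the largest SD, the 15 farthest above and below in replicate 2 (3 for each other replicate), Zfp36, Myc, the cyclin D genes, the members of the B cell stage lists and, of every other list, the most variable and the highest. Other names were chosen after their values were seen. The 30 lists hold 395 genes, 349 of them measured. The members and lists were chosen with earlier results of these data known. Promoter strings were chosen after others had been tried. The labels call the arrays biological replicates. Spread between them includes that of the array measurement. The scripts were tested on simulated data.

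Alternatives were other level filters, distances and gaps, the mean of all probe sets of a gene, median centring, leaving out _x_at probe sets, a pseudocount of 16, quantile normalisation and leaving out each replicate.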

Additional observations from a re-analysis of the deposited data

Results flagged for a closer look

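In 43 of 214 groups of 5 values examined, 1 tumour lay far outside the rest: its gap to the nearest other tumour was more than 0.71 of the whole range. Chance alone gives about 1 in 20. The groups were the named genes and the list means, many of them chosen for being extreme, so these counts support nothing. Replicate 2 was the outlying tumour in 30 of them, replicates 3 and 5 in 5 each, replicate 1 in 2 and replicate 4 in 1. All values below are log2 intensities in the outlying tumour, with the range of the other 4 where the report does not give it.

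Among genes of B cells and antigen receptor signalling, replicate 2 was low in Cd22 (6.99), Cd72 (7.50), Fcrla (4.78), Bank1 (8.43), Ccr7 (3.28), Zap70 (2.49) and Slamf7 (2.88), and in the pan-B list mean (10.72). Pax5 (8.49) was among them because the other 4 arrays held one value. Among regulators of transcription, signalling and survival, replicate 2 was low in Lef1 (4.90), Gfi1 (3.17), Etv5 (4.19), Ccnd1 (8.03), Bcl2 (3.96) and Trp53i11 (4.83, against 10.36 to 10.93).

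Replicate 2 was also low in Gm10451 (2.80), Mcoln2 (3.76), Tmem243 (6.87, against 12.62 to 13.46) and Tmem255a (5.86). Eif5a (15.99) and Snrpg (15.57, against 15.66 to 15.68) were low in replicate 2 by under 0.1 log2 units, so that their tight ranges alone made them stand out.

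Replicate 2 was high in Vamp5 (12.68), Fyb (13.18), Gsn (14.68), Prkca (11.99), Rab38 (11.94), Ripor1 (12.91), Socs5 (11.13) and Epg5 (12.48), and in the granulocyte list mean (8.88).

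The other tumours had fewer such genes. Replicate 1 was low in 2810025M15Rik (5.35) and high in Tyk2 (11.11). Replicate 3 was low in Ccng1 (11.12) and Nefh (4.59), and high in Iglv1 (9.82), Rgs13 (8.12) and Rrm2b (11.04). Replicate 4 was high in Dntt (9.05). Replicate 5 was low in Mid1 (2.73) and high in Esm1 (10.04), Pex5 (12.20), Fcer2a (8.05) and Eef1b2 (15.85, against 15.71 to 15.73).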

How the results depend on the processing

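Of 215 recomputed values for 26 results, 162 stayed close to the value reported and 53 moved. A count was judged by its ratio to the reported one, and a list mean or chromosome median against the SD between tumours. Counts and list means of this kind cannot change sign. Only the chromosome medians could reverse, and none did. The number of genes with an SD of 1 or more was 554 with a mean over 7, 215 over 9, 839 with the highest array over 8, and 221 with the mean of all probe sets of a gene. Leaving out a replicate gave 203 (without replicate 2) to 417. Genes with replicate 2 above the others numbered 35 at a distance of 2, 93 with a mean over 9, 350 with the highest array over 8 and 81 with the mean of probe sets, and 170 to 253 (without replicate 4) leaving out a replicate. Genes with it below numbered 73, 283 and 117 at a distance of 2, with the highest array over 8 and with the mean of probe sets.

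At a distance of 2, replicates 1, 3, 4 and 5 had 12, 6, 7 and 10 genes set apart in both directions together, in place of 57, 74, 28 and 42. A mean over 7 gave 91, 43 and 66 for replicates 1, 4 and 5, and a mean over 9 gave 30, 42, 12 and 23 for replicates 1, 3, 4 and 5. The highest array over 8 gave 123, 141, 71 and 82, and the mean of probe sets 27, 18 and 20 for replicates 1, 4 and 5. Leaving out a replicate gave 70 to 143 (without replicate 5) for replicate 1, 106 to 143 (without replicate 1) for replicate 3, 34 to 167 (without replicate 2) for replicate 4, and 47 to 108 (without replicate 1) for replicate 5. Replicate 1 also moved to 108 without replicate 3, replicate 3 to 123 without replicate 5, replicate 4 to 48 and replicate 5 to 83 without replicate 3. Leaving out an array narrows the range that the others span, so that more genes pass.

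With the mean of probe sets, list means were 7.59 (precursor B), 4.37 (immunoglobulin), 4.82 (germinal centre), 6.82 (plasma cell), 3.99 (T cell) and 7.18 (stroma). A pseudocount of 16 raised the germinal centre, plasma cell, T cell and natural killer cell means to 6.47, 8.23, 5.58 and 4.66, since it lifts low values by construction. Genes with a gap numbered 77 at a gap of 3, with replicate 2 alone in 51, and 496 with the highest array over 8, with replicate 2 alone in 248. Of the 100 brightest genes, 60 were shared with the order by the mean of probe sets and 82 with that without _x_at probe sets. Signals near background limit the dim genes. No paired analysis was possible because 1 group is described, with no contrast between groups and no test.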

Other observations

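Genes present in few tumours can have a mean under 8 and still differ widely in a single tumour. The genes below were singled out after their values were seen, from the 8313 genes whose highest array exceeded 8.

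In replicate 2, Myl10, a myosin light chain gene known from lymphoid precursors, read 14.18, against 2.10 to 2.17 in the other 4. C4bp, the complement C4-binding protein, read 11.45, against 2.66 to 2.72. Trgv4, a variable segment of the T cell receptor γ locus, read 11.05, against 2.24 to 2.34, and Hemgn, a nuclear protein of blood progenitors, 9.57, against 2.24 to 2.31. The T cell receptor chain Cd3e was at background in that tumour (2.75).

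Other tumours had such genes too. In replicate 3, Umod, which encodes uromodulin, read 9.63, against 2.67 to 2.80. In replicate 4, the forkhead factor Foxi1 read 11.55, against 2.07 to 4.83, and Shroom2, an actin-binding protein, 10.61, against 2.70 to 3.14. In replicate 5, Dlg5, a scaffold protein, read 10.39, against 2.73 to 4.80, and Igkv9-120, a κ light chain variable segment, 9.69, against 2.33 to 6.52. In replicate 1, Pcp4, a calmodulin regulator, read 12.76, against 2.78 to 10.15.

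Genes known as targets or feedback inhibitors of ERK signalling were among those low in replicate 2, beside Etv5. Dusp6, a phosphatase of ERK, read 12.90, 9.04, 13.88, 12.26 and 12.97. Spry2, an inhibitor of receptor tyrosine kinase signalling, read 9.53, 5.98, 9.61, 7.95 and 9.39. Dusp4, a related phosphatase, read 11.16, 3.89, 10.32, 7.65 and 11.28. Replicate 2 was lowest and replicate 4 next lowest in these 3 genes, which were chosen after their values were seen and form no tested list. The early response genes went both ways. Egr1 was lowest in replicate 2 (8.71), whereas Fos was not (9.38, in a range of 6.19 to 10.03).

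The heavy chain variable segment Ighv14-2 read 14.01, 11.23, 13.45, 11.44 and 14.43, lower in replicates 2 and 4.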
